A study of Mus musculus with 16 samples.

Results

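The B6 list of H3K4me3 peaks held 50013 peaks on chromosomes 1 to 19, and 8517 of them overlapped no peak of the B6-TgWT list and none of the B6-TgYF list. These 8517, or 17.0% of the B6 peaks, are the B6-alone peaks. They were chosen by measured values, the peak positions in the 3 deposited lists, and 1 bp of overlap with either transgenic list was enough to keep a peak out. Their number and their absence from the other lists are therefore the choice itself and not a finding. A B6-alone peak is a stretch that the authors' peak caller reported in 1 list, and a missing call in the others is not proof that those lines lacked the mark. The B6 list was the longest, as the B6-TgWT list held 46631 peaks on these chromosomes and the B6-TgYF list 41558. With the 3 lists cut to equal length by keeping the most enriched peaks, an alternative chosen after the data were seen, 3376 B6-alone peaks were left. Of the other B6 peaks, 35147 (70.3%) overlapped both transgenic lists and are called shared here, 5023 (10.04%) overlapped the B6-TgYF list only, and 1326 (2.65%) the B6-TgWT list only.

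H3K4me3 is trimethylation of lysine 4 on histone H3. In most cells it marks active and poised promoters, where it forms wide and strongly enriched domains. In meiotic cells of the testis the methyltransferase PRDM9 also trimethylates H3K4, where its zinc fingers recognise the DNA, away from most promoters, and these sites go on to receive the DNA double-strand breaks of recombination. Different Prdm9 alleles encode different zinc fingers and so mark different sites, and when alleles are present together they compete. A whole-testis H3K4me3 list thus mixes promoters, PRDM9 sites and other elements, from germ cells and somatic cells together.

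All 3 groups were testes at 13 days post-partum, an age at which the first wave of germ cells has entered meiotic prophase, and each group had 2 H3K4me3 ChIP libraries and 1 input. The B6 mice were of strain C57BL/6JOlaHsd and carried no transgene. The B6-TgWT mice were C57BL/6J-Tg(RP23-159N6*)43Bdm and the B6-TgYF mice C57BL/6JRj-Tg(RP23-159N6*)23Bdm. From what is known of the study, both transgenes are modified bacterial artificial chromosomes that add a Prdm9 gene of another binding specificity, active in TgWT and mutated in its catalytic domain in TgYF. In the labels a Prdm9 knockout appears in DMC1 groups only, so the B6 gene is taken to be present in all 3 groups. Substrain and transgene insertion differ together between the lines, each transgene is 1 line, and the effect of each cannot be told apart. The deposited name of the B6 list carries d12 where the labels give 13 days. Because each line has 1 list for its libraries, no value below has a spread between replicates and no test was run. Intervals are 95% Wilson intervals. They cover the error of counting peaks, and the peaks of 1 list are not replicates. Read depth is unknown, as the lists hold no read counts, and the marker genes of testis cell types could not be looked up, since no gene annotation of the build mm9 was used here.

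B6-alone peaks were narrow. Their median width was 596 bp, with an interquartile range of 440 to 804 bp, a narrowest peak of 153 bp and a widest of 2639 bp. Shared peaks had a median of 1398 bp and reached 12421 bp. The peaks that B6 held with only 1 transgenic line lay between, with medians of 739 bp for B6 and B6-TgYF and 778 bp for B6 and B6-TgWT. Read the other way, the share of B6 peaks that were B6-alone fell at each step of width. It was 71.8% (interval 68.6 to 74.7) of the 843 B6 peaks under 300 bp, 44.9% (43.1 to 46.7) of the 3019 from 500 to under 600 bp, and 10.6% (9.85 to 11.4) of the 5890 from 1000 to under 1200 bp. Of the 8905 B6 peaks of 2000 bp or more, 4 were B6-alone. A longer peak meets peaks of other lists more readily by its length alone, so width is not independent of the choice and these shares are a description. The summit, the position of highest signal, fell in the middle part of the peak (the inner 50% of its length) in 85.7% of the B6-alone peaks, against 94.3% of the shared peaks after weighting to equal width, a step set out below.

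**Figure D1:**
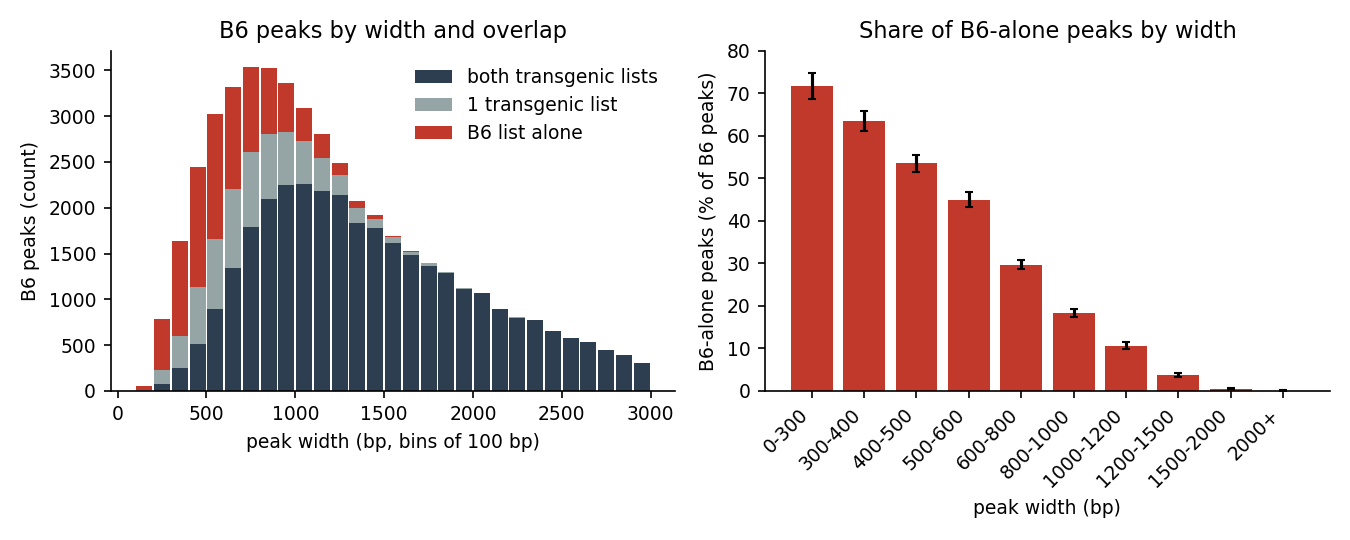
Left, B6 peaks on chromosomes 1 to 19 by width in bins of 100 bp, stacked by whether both, 1 or neither transgenic list overlapped them; peaks wider than the axis are not drawn. Right, the share of B6-alone peaks in each width class, with 95% Wilson intervals as error bars; the share falls from 71.8% under 300 bp to 3.77% from 1200 to under 1500 bp.

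B6-alone peaks were also weak in their own list. The deposited lists give each peak a fold enrichment, the ratio of ChIP signal over background, and its median was 3.82 among B6-alone peaks, with a range of 2.42 to 7.72. The median of the autosomal B6 list was 7.72, and 0 of the B6-alone peaks lay above it. Shared peaks had a median of 11.62 and reached 40.52. The −log10 p of the B6-alone peaks had a median of 16.55 and ran from 11, the lowest in the list, to 55.75. Of the B6 peaks with a −log10 p under 12, 85.5% (82.4 to 88.2) were B6-alone, and of those from 30 to under 40, 9.96% (9.08 to 10.9). Many B6-alone peaks lay close to the lower limit of the list: 484 (5.68% of them) lay under a −log10 p of 12 and a further 2678 (31.4%) under 15. A weak peak more readily falls short of a call in another list. Strength, like width, is thus not independent of the choice, and these values are a description.

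Width and strength each moved with the B6-alone share when the other was held in a narrow class. Among B6 peaks with a fold enrichment of 3.5 to under 4, B6-alone peaks made up 84.6% of those under 400 bp, 59.8% of those from 600 to under 800 bp and 33.3% of those from 1200 to under 1500 bp. Among peaks of 600 to under 800 bp, they made up 61.8% at a fold under 3.5, 14.6% at a fold from 5 to under 6 and 2.60% from 6 to under 8. The fall with fold did not extend to the lowest folds. Over all widths, 45.1% (41.5 to 48.8) of the 700 B6 peaks with a fold of 2 to under 3 were B6-alone. From 3 to under 3.5 it was 69.9% (68.2 to 71.5) of 2943. At a fold of 8 or more, 0 of 24249 B6 peaks were B6-alone at any width, which allows a share of up to 0.0158%, the upper bound of its interval. Within the B6-alone peaks themselves the 2 measures were only loosely related, with a Spearman's rho of 0.164 across peaks, against 0.713 across shared peaks. Both values are descriptions over peaks of 1 list, with no p.

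**Figure D2:**
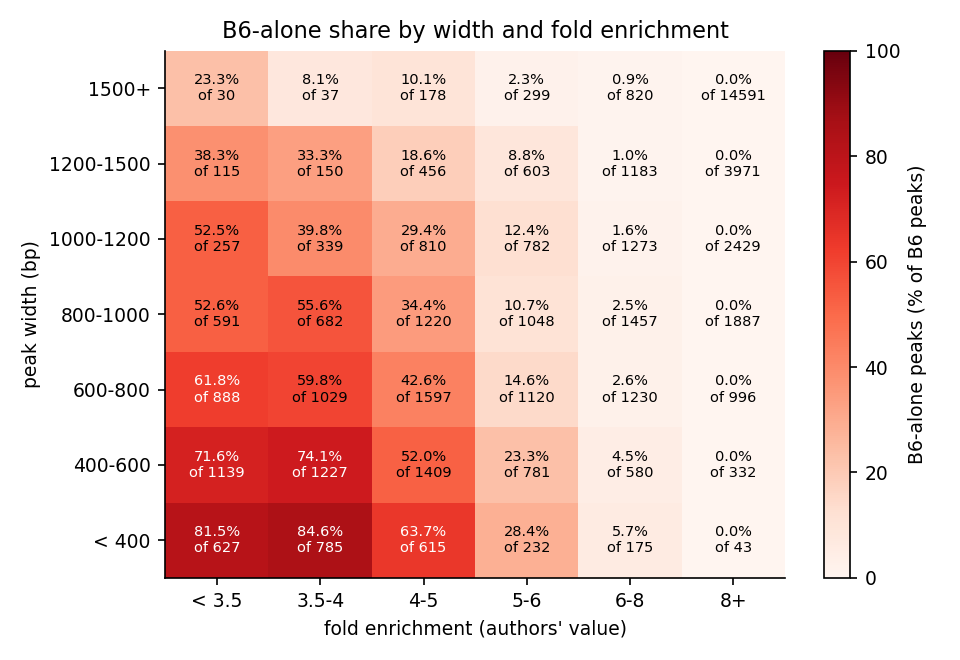
Share of B6-alone peaks among all B6 peaks (colour scale and percentages) by peak width in bp, vertical, and fold enrichment, horizontal; the second line of each cell is the number of B6 peaks in it. The share is highest for peaks under 400 bp at a fold under 4, with 81.5% and 84.6%, is lower in most cells of greater width or fold, and is 0% in every cell at a fold of 8 or more.

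Because narrow peaks may sit in other places than wide ones, shared peaks were weighted to the widths of the B6-alone peaks in bins of 100 bp before distances and positions were compared. This used 28750 shared peaks with an effective number of 4558 and left 41 B6-alone peaks without a counterpart. The weighted median width was 598 bp. Strength still differed, as the shared peaks of equal width had a median fold enrichment of 6.58 and a median −log10 p of 47.87. A further comparison weighted on width and fold together, with an effective number of 810 shared peaks and a median fold of 3.83. Even then the median −log10 p was 22.82 for shared and 16.55 for B6-alone peaks. The shared peaks thus had the stronger p-values at similar width and fold. Matching was by bins of 1 fold unit, and the 75th percentile of fold was still 4.56 for shared and 4.34 for B6-alone peaks.

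Compared in this way, B6-alone peaks stood farther from other B6 peaks. The gap is the number of bases between a peak and the nearest other peak of the B6 list, whatever its class. The median gap was 10395 bp for B6-alone peaks, 4955 bp for shared peaks of equal width and 6354 bp for shared peaks of equal width and fold. Within 5 kb of another B6 peak lay 34.8% (33.8 to 35.8) of the B6-alone peaks, 50.1% (48.7 to 51.6) of the shared peaks of equal width and 45.6% (42.2 to 49.0) of those of equal width and fold. The intervals do not overlap. Without matching, shared peaks gave 37.0% (36.5 to 37.5), close to the B6-alone value, so the size of the difference depends on comparing narrow peaks with narrow peaks. Peaks that B6 held with only 1 transgenic line, weighted to the same widths, took a middle place at 41.7% (40.3 to 43.1). Their strength was not matched and also lay between that of B6-alone peaks and shared peaks of equal width. The medians were a fold of 4.55 and a −log10 p of 24.43.

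At equal width, direct neighbours were fewer beside B6-alone peaks. A neighbour within 200 bp was found for 955 B6-alone peaks, or 11.2% (10.6 to 11.9), against 23.9% (22.7 to 25.1) of shared peaks of equal width and 21.6% (18.9 to 24.6) of those of equal width and fold. Without weighting the direction turned: 8.55% (8.26 to 8.84) of all shared peaks, 11.1% of the peaks of B6 and B6-TgYF and 10.8% of those of B6 and B6-TgWT had a neighbour within 200 bp. Within 1 kb the shares were 18.3% for B6-alone peaks and 14.9% for all shared peaks. At the far end, 33.5% of the B6-alone peaks were more than 20 kb from any other B6 peak, against 21.2% and 25.4%. The B6 list itself holds no neighbours nearer than 51 bp. A peak lying close to another can count as shared because 1 broad peak of a transgenic list covers both, and this was the case for 2.56% of the shared peaks of equal width and for 7.68% of those within 1 kb of another B6 peak. With all such peaks left out, an alternative chosen after the data were seen, the shares within 200 bp fell to 22.3% (21.1 to 23.6) for equal width and 17.4% (14.6 to 20.7) for equal width and fold, both still above the 11.2% of B6-alone peaks. In the same setting, 48.9% (47.4 to 50.4) of the shared peaks of equal width and 42.2% (38.2 to 46.1) of those of equal width and fold lay within 5 kb.

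**Figure D3:**
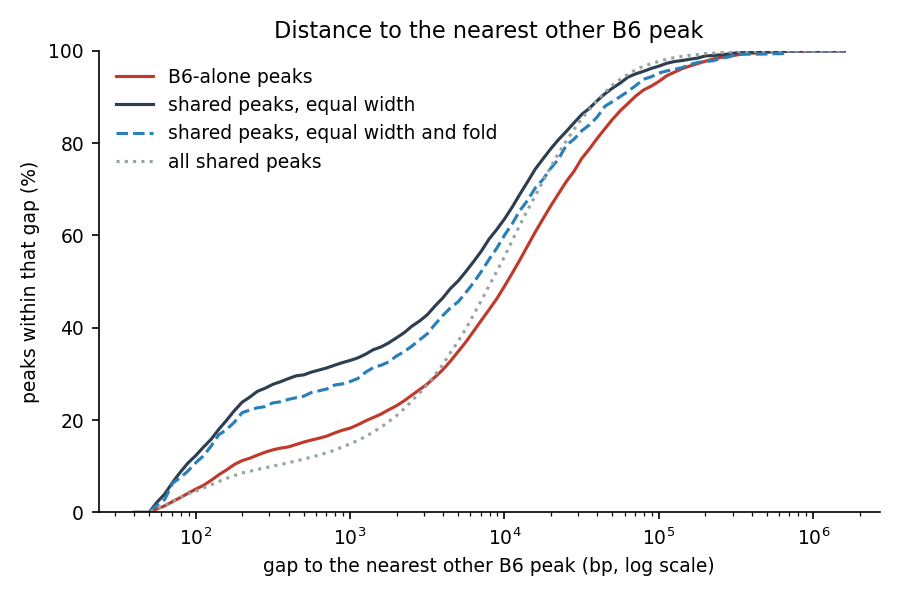
Cumulative share of peaks (vertical, percent) whose nearest other B6 peak lies within a given gap (horizontal, bp, log scale), for B6-alone peaks, all shared peaks, and shared peaks weighted to equal width or to equal width and fold. The B6-alone curve lies below both weighted curves up to gaps of 100 kb, with 34.8% against 50.1% and 45.6% at 5 kb. At the longest gaps the curves meet and cross.

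The same held on every chromosome for equal width. The share of B6-alone peaks within 5 kb of another B6 peak ran from 28.3% on chromosome 3 to 43.2% on chromosome 11, and on 19 of 19 chromosomes it was below the value of the shared peaks of equal width, which ran from 44.1% to 61.8%. With width and fold both matched within the chromosome it was also lower on 19 of 19, but narrowly on some, as on chromosome 5 with 41.0% against 41.2%, and with fewer counterparts, such as for 239 of the 357 B6-alone peaks on chromosome 14. At 1 kb the B6-alone share was lower on 19 of 19 for equal width and on 16 of 19 for equal width and fold. Chromosomes share the libraries and the peak calling, so they are not replicates.

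**Figure D4:**
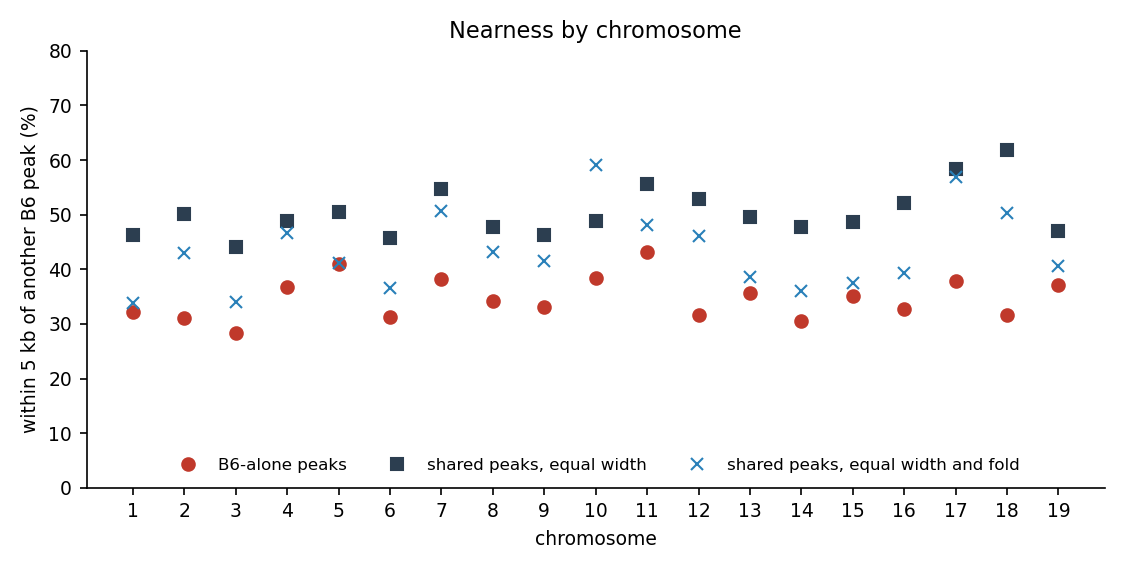
Share of peaks within 5 kb of another B6 peak (vertical, percent) on each chromosome (horizontal) for B6-alone peaks and for shared peaks weighted to equal width, or equal width and fold, within that chromosome. On all 19 chromosomes the B6-alone point is the lowest, between 28.3% and 43.2%.

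B6-alone peaks beside another peak were narrower than the isolated ones, at the same median strength. The 1555 with a neighbour within 1 kb had a median width of 473 bp, the 4107 with a gap of 1 to 20 kb 616 bp and the 2855 beyond 20 kb 634 bp. Their median fold enrichment was 3.82 in each of these 3 sets. For the 1555, the neighbour was usually the larger peak: it was wider in 79.1% and stronger in 82.6%, with a median width of 863 bp and a median fold of 6.62. It was a shared peak in 63.2% and another B6-alone peak in 21.8%. This was not a trait of close pairs, as the nearest B6 peak was wider in 81.6% and stronger in 86.1% of the B6-alone peaks with a gap of 1 to 20 kb, and in 76.0% and 81.8% of those beyond 20 kb. The shared peaks of equal width and fold with a neighbour within 1 kb had wider neighbours in 78.7% and stronger ones in 83.1%, close to the B6-alone values.

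Relative to the transgenic lists, most B6-alone peaks were well clear of any called peak. These gaps are read from the positions that the choice used, and they cannot show signal that fell short of a call. The median gap to the nearest B6-TgWT peak was 12505 bp and to the nearest B6-TgYF peak 13525 bp. Only 216 (2.54%, interval 2.22 to 2.89) lay within 100 bp of a peak of either list, 1016 (11.9%) within 500 bp and 2842 (33.4%) within 5 kb. For comparison, the nearest B6-TgWT or B6-TgYF peak that did not overlap them lay within 500 bp of 25.2% of the shared peaks of equal width and 18.1% (15.6 to 20.95) of those of equal width and fold. Without weighting the direction turned, with 9.48% (9.18 to 9.79) of all shared peaks, below the 11.9% (11.3 to 12.6) of B6-alone peaks. The peaks of B6 and B6-TgYF, at 11.2%, and those of B6 and B6-TgWT, at 12.8%, were close to the B6-alone value. Distances to the 9002 B6-TgWT peaks that overlapped no B6 peak differed little at 5 kb. Within 5 kb of such a peak lay 4.05% (3.65 to 4.49) of the B6-alone peaks. The shares were 4.13% (3.58 to 4.74) for shared peaks of equal width and 5.42% (4.07 to 7.21) for equal width and fold. Within 1 kb the 3 shares were 0.62% (0.48 to 0.81), 0.92% (0.68 to 1.24) and 1.4% (0.76 to 2.42). For all shared peaks without weighting, the share within 1 kb was 0.99% (0.89 to 1.10). The median distances were 87389, 84863 and 84110 bp, and 72760 bp for all shared peaks.

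At the border of the rule, the 216 B6-alone peaks within 100 bp of another list had a median width of 413.5 bp and a median fold of 3.9. Only 9 B6 peaks were kept out by an overlap of at most 100 bp, with medians of 578 bp and 3.7. The B6-alone peak nearest to the border, on chromosome 6 at 136417032 to 136418255 (mm9, counted from 1, as all coordinates here), touched a B6-TgYF peak with 0 bases between. The next lay on chromosome 8 at 101669257 to 101669764 with 10 bp between, chromosome 11 at 116711464 to 116711784 with 23 bp, chromosome 16 at 90521179 to 90521674 with 24 bp and chromosome 9 at 66615803 to 66616215 with 27 bp. Just outside were a peak on chromosome 6 at 85910066 to 85910440 with 6 bp of overlap, and others on chromosome 8 at 130740461 to 130741351 with 8 bp, chromosome 5 at 135827391 to 135827880 with 18 bp, chromosome 15 at 51669958 to 51670650 with 27 bp and chromosome 1 at 70316903 to 70317581 with 54 bp.

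The nearest B6 peak of a B6-alone peak was in most cases a shared peak (66.7%). For 1599 of them the nearest B6 peak was also B6-alone, which is 18.8% (17.96 to 19.6), against 16.9% (15.8 to 17.96) of shared peaks of equal width and 18.4% (15.9 to 21.2) of those of equal width and fold. With fold matched, the difference was well within the counting intervals. When shared peaks that 1 transgenic peak joined to another B6 peak were also left out, the fold-matched share was 19.7% (16.8 to 23.1), above that of B6-alone peaks. Peaks that B6 held with only 1 transgenic line, weighted to the same widths, gave 18.5% (17.4 to 19.6), so the B6-alone value was not particular to that class. The size of the difference from shared peaks of equal width depended on how sharing was defined. It was 19.96% against 9.81% with the other lists' peaks extended by 500 bp, and 19.6% against 14.5% when sharing was set by summits within 500 bp. The extension turns B6-alone peaks close to a called peak into shared ones, so that difference is partly built in. With B6 peaks of −log10 p of 20 or more only, both shares were lower, at 8.22% and 6.21%, with lists of equal length they were 10.2% and 7.89%, and with the limit of 20 in all 3 lists they were 24.2% and 18.6%. Along the chromosome, the next B6 peak was B6-alone after 18.99% of the B6-alone peaks and after 16.6% of the other B6 peaks. Among all B6 peaks, 17.0% were B6-alone. The 8517 peaks formed 6900 runs without another B6 peak in between. Of these, 5649 were single peaks (66.3% of the B6-alone peaks), 981 were pairs and 201 were runs of 3. Runs of 4 or more numbered 69 and held 303 peaks. With 17.0% of the B6 peaks B6-alone, most runs would be single peaks without any clustering. From one B6-alone peak to the nearest other the median gap was 77.532 kb, and 358 (4.20%) had another within 1 kb.

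The longest runs were long in bases rather than dense. The longest held 8 B6-alone peaks over 716.554 kb on chromosome 13 (79076777 to 79793330). Their folds were 2.83 to 4.56 and their widths 373 to 1236 bp. Runs of 6 followed on chromosome 5 from 46317189 to 46837423 (520.235 kb, folds of 3.9 to 5.88) and on chromosome 8 from 40674613 to 41102482 (427.87 kb, folds of 3.37 to 5.29). In each of these stretches the B6 list held no peak that another list overlapped.

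At the scale of 1 Mb windows, B6-alone peaks were more numerous where the other B6 peaks were. Of 2367 windows with a B6 peak, 182 (7.69%) held no B6-alone peak and 43 held no other B6 peak, the median window held 3 and 59 windows held 10 or more. Windows were ranked by their number of other B6 peaks and cut into 5 groups of 473 or 474. From the poorest to the richest group, the mean number of other B6 peaks rose from 2.19 to 40.2 a window, while the mean number of B6-alone peaks rose from 1.54 to 5.63. The share of B6-alone peaks therefore fell from 41.3% of the B6 peaks in windows with 0 to 4 others to 12.3% in windows with 28 to 103. The ranking used the other peaks, so their steeper rise and the fall of the share are partly built into it. Both counts rose together, with a Spearman's rho of 0.598 across the 2367 windows. At single peaks, within 500 kb on either side a B6-alone peak had a median of 21 B6 peaks of other classes, against 25 for shared peaks of equal width and 24 for those of equal width and fold.

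**Figure D5:**
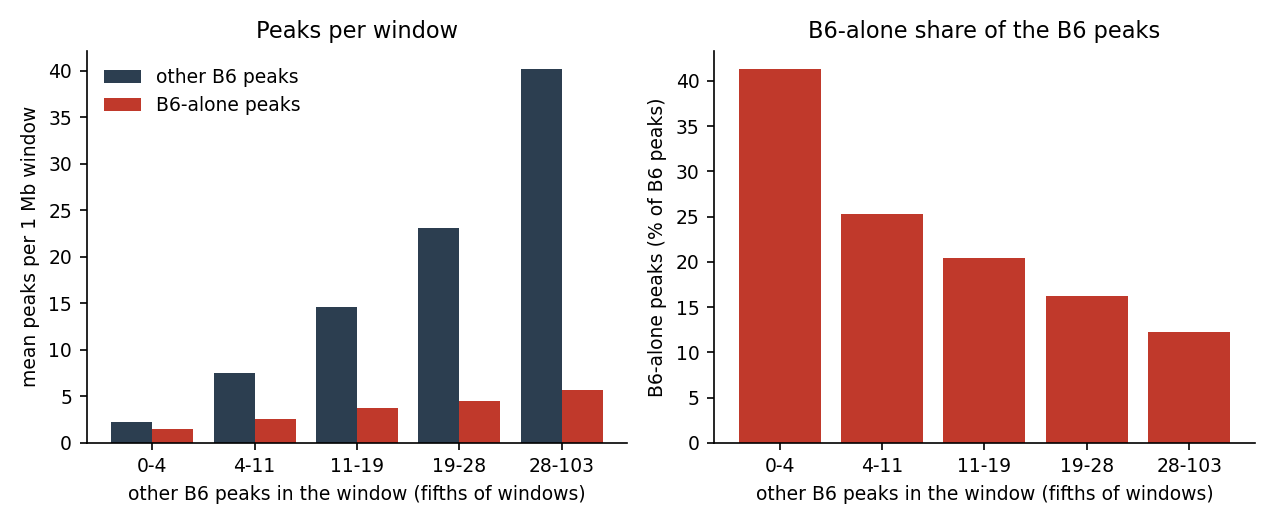
Left, mean number of B6-alone and of other B6 peaks per 1 Mb window (vertical) in 5 groups of windows ranked by their other B6 peaks (horizontal, range of that count). Right, B6-alone peaks as a percentage of all B6 peaks in the same groups; B6-alone peaks rise from 1.54 to 5.63 a window while their share falls from 41.3% to 12.3%.

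The windows with most B6-alone peaks differed in their number of B6 peaks and in the width of their B6-alone peaks. The first, at 37 to 38 Mb of chromosome 18, held 16 B6-alone peaks among 109 B6 peaks (14.7%), with a median width of 344.5 bp and folds up to 4.78. The next, at 116 to 117 Mb of chromosome 10, held 15 of 66 (22.7%) with a median width of 353 bp and folds up to 4.63. After these, 3 windows tied with 14, and the tie was ordered by highest fold. The window at 120 to 121 Mb of chromosome 5 held 14 of 72 (19.4%) with a median width of 549 bp and folds up to 6.69. At 100 to 101 Mb of chromosome 9 they were 14 of 41 (34.1%) with a median width of 728.5 bp, and at 120 to 121 Mb of chromosome 10, 14 of 68 (20.6%) with 599 bp. Set beside the 596 bp of all B6-alone peaks, those of the first 2 windows were narrower and those of the window on chromosome 9 wider.

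Every autosome carried B6-alone peaks, from 232 on chromosome 19 to 618 on chromosome 1. Their share of the B6 peaks was lowest on chromosome 11 (13.0%, 11.9 to 14.2) and chromosome 17 (13.3%, 11.9 to 14.8) and highest on chromosome 13 (19.02%, 17.5 to 20.6) and chromosome 16 (18.98%, 17.3 to 20.8). Chromosome 11 also had the densest B6 list, with 28.4 peaks per Mb, against 21.5 on chromosome 13. Over the 19 chromosomes the share of B6-alone peaks and the density of B6 peaks had a Spearman's rho of -0.612, given as a description. Median widths of B6-alone peaks were alike across chromosomes, from 553 to 623 bp. Chromosome X, which the choice left out, held 244 such peaks among 1157 (21.1%).

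Along the chromosomes the B6-alone peaks followed the other peaks with small departures. Mouse autosomes have their centromere at the start of the coordinates, and the span from the first to the last B6 peak was cut into 10 equal parts. The distal part held 12.8% (12.1 to 13.5) of the B6-alone peaks, against 14.2% (13.2 to 15.2) of the shared peaks of equal width and 15.2% (12.9 to 17.8) of those of equal width and fold. The part next to the centromere held 8.02% (7.46 to 8.62), 7.21% (6.50 to 8.01) and 6.31% (4.82 to 8.18). These intervals overlap or nearly touch, and the distal share was lower for B6-alone peaks on only 11 of 19 chromosomes. Of all B6 peaks, B6-alone peaks made up 19.8% in the part next to the centromere and 15.7% in the distal part, and between 15.6% and 18.1% in the others.

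The strongest B6-alone peaks were modest beside the list as a whole. Those of highest fold enrichment lay on chromosome 7 at 82923131 to 82924948 (fold 7.72, width 1818 bp), chromosome 10 at 67694209 to 67694959 (fold 7.72, 751 bp), and then, each with a fold of 7.57, chromosome 2 at 171138134 to 171139106 (973 bp), chromosome 8 at 91854953 to 91855868 (916 bp) and chromosome 11 at 87660841 to 87661736 (896 bp). Their settings differed. The first had a B6 and B6-TgYF peak 172 bp away, while the peak on chromosome 2 was 58.945 kb from the nearest B6 peak and 25.894 kb from the nearest B6-TgWT peak.

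Of the 5 widest B6-alone peaks, 4 lay on chromosome 7. The widest of all spanned 2639 bp at 116778577 to 116781215 of that chromosome, with a fold of 4.46 and 17.905 kb to the nearest other B6 peak. The others on chromosome 7 were at 118124094 to 118126212 (2119 bp, fold 4.96), 31754083 to 31756140 (2058 bp, fold 3.57) and 77492020 to 77494013 (1994 bp, fold 4.54), and the latter pair had shared peaks 67 and 379 bp away. The remaining peak lay on chromosome 9 at 58004856 to 58007009 (2154 bp, fold 4.96).

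The most isolated B6-alone peaks had no other B6 peak within 885 kb to either side. They lay on chromosome 3 at 44034563 to 44035173 (1144.316 kb to the nearest B6 peak), chromosome 4 at 112652313 to 112652583 (1091.746 kb), chromosome 1 at 115879304 to 115880033 (979.221 kb), chromosome 5 at 10680325 to 10680706 (953.683 kb) and chromosome 19 at 13757358 to 13758336 (885.283 kb). Their folds of 3.53 to 3.97 were close to the B6-alone median of 3.82. The B6-TgWT list had a nearer peak than the B6 list in 4 of these 5 stretches, at 68.105 kb on chromosome 3, 304.276 kb on chromosome 1, 284.93 kb on chromosome 5 and 543.168 kb on chromosome 19. The exception was the peak on chromosome 4, 1093.12 kb from the nearest B6-TgWT peak. For the B6-TgYF list the nearest peak was as far as that of the B6 list or farther in each of the 5. These peaks were picked for their large gap in the B6 list, which by itself favours a nearer peak in another list.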

How the data were processed

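H3K4me3 ChIP-seq and input libraries of mouse testis were deposited with 1 peak list per line. CASAVA, Bowtie2, BWA, MACS2 and the build mm9 are named per the submitters' processing notes, with no role given for each. For the handling of the 2 replicates and the calling cutoff, the steps were not given in the sources used here. Per peak, each deposited list has its position, an integer score, a fold enrichment, and a −log10 p (a −log10 q was not used here). These deposited values are the authors' own and were used to describe and rank peaks of the B6 list, to weight shared B6 peaks on fold, and, in alternatives, to filter each list by its own values. The DMC1 libraries were not analysed here.

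Peaks were read with pandas 2.3.3 under Python 3.11.15, statistics used scipy 1.17.1 and numpy 2.4.6, and figures matplotlib 3.10.9. An overlap of 1 bp counted as shared. Shared peaks were weighted to the B6-alone width distribution in bins of 100 bp, or to width and fold in bins of 100 bp by 1 fold unit, and weighted intervals use the effective number of peaks. The code was tested on simulated peaks. The members, bins and comparisons were chosen with earlier results of these data known. Regions described singly are the 5 of highest fold, the 5 widest, the 5 farthest from another B6 peak, those nearest the border of the choice, the 3 longest runs and the 3 windows with most B6-alone peaks, with those tied for the third. Gene assignment, promoters, cell type markers and sequences need an mm9 annotation or genome and were not used here. Because each line has 1 list, there is no test, and 95% Wilson intervals cover counting error only.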

Additional observations from a re-analysis of the deposited data

How the results depend on the processing

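No paired analysis was possible because the lists, 1 a line, carry no replicate numbers, and so no replicate could be left out. The promoter share was not run. Of 70 alternative values, 34 moved by less than their counting interval (1.5 times for the number of peaks) and 36 moved further. In all 13 settings with a 5 kb share for both sets, fewer B6-alone than equal-width shared peaks lay within 5 kb of another B6 peak. Fewer also lay in the distal part in all 13 settings with that share. There the main intervals overlapped, and only 11 of 19 chromosomes went the same way. The settings rework the same peaks and are not independent. In 12 of 12 settings a B6-alone peak more often had a B6-alone nearest peak, though within the counting interval for equal width and fold and for equal width and −log10 p. Outside these 12, matching width and fold without the jointly overlapped shared peaks gave 19.7% (16.8 to 23.1), above the 18.8% of B6-alone peaks. Keeping B6 peaks of −log10 p of 20 or more removes weak peaks: 2627 B6-alone peaks were left, with a median width of 699 bp, 30.2% within 5 kb (41.1% for equal-width shared peaks), 8.22% with a B6-alone nearest peak (6.21%) and 11.6% distal. The same limit in all 3 lists gave 765 bp, 31.3% (41.7%) and 24.2% (18.6%). Lists of equal length by fold enrichment, chosen after the data were seen, gave 3376 peaks, 678 bp, 30.7% (42.6%) and 10.2% (7.89%). Extending the other lists' peaks by 500 bp gave 617 bp, 26.3% (57.2%) and 19.96% (9.81%). By its rule that setting moves B6 peaks close to a called peak from B6-alone to shared. Its 5 kb and nearest-peak differences are therefore partly built in and add little to the counts of settings above. Sharing by summits within 500 bp gave 615 bp, with a B6-alone nearest peak for 14.5% of the shared peaks. Gaps from summit to summit gave 30.9% (46.5%) within 5 kb. Shared peaks of equal width and fold gave 45.6% within 5 kb, 18.4% with a B6-alone nearest peak and 15.2% distal. Those of equal width and −log10 p, also chosen after the data were seen, gave 45.9%, 18.5% and 15.6%. Peaks overlapped in at least 1 other list gave 46.6% within 5 kb. A distal part of 5% held 5.45% of B6-alone peaks and 6.54% of the shared peaks. Leaving out shared peaks that share their overlapping peak with another B6 peak, the third alternative chosen after the data were seen, moved none of the 5 kb, nearest-peak and distal shares of equal-width peaks past its interval, but lowered their share within 200 bp from 23.9% to 22.3%, and from 21.6% to 17.4% for equal width and fold. Beyond the removal or extension of peaks that a setting makes, the cause was not tested. Depth is unknown, so peaks near the calling limit cannot be graded by read support.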

Other observations

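Peaks of the B6 list carry names numbered in genome order, and some numbers are not listed. Between a B6-alone peak and the next listed peak a mean of 0.924 numbers was missing, against 0.708 after shared peaks of equal width, 0.76 after those of equal width and fold and 0.737 after all shared peaks.

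Among the 42 B6-alone peaks of 1500 bp or more, 9 (21.4%) were on chromosome 7, which held 5.82% of all B6-alone peaks. Of the 15755 shared peaks of that width, 1101 (6.99%) were on chromosome 7, and of the 158 that only 1 transgenic list overlapped, 5 (3.16%) were. This was noticed after the values were seen.

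Fold enrichments repeated among B6-alone peaks. The 8517 peaks had 365 different values, and the most frequent, 3.6, was that of 254 peaks. As the values are rounded, their range of 2.42 to 7.72 limits how many can differ. Other sets of peaks were not counted in this way.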
